A study of Homo sapiens with 15 samples.

Results

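Senescent IMR90 fibroblasts with a short hairpin RNA against TXNRD1 (shTXNRD1) were compared with senescent control fibroblasts, 3 libraries against 3, which are 6 of the 15 RNA-seq libraries of the series. The comparison ran over the 15994 of 57736 Ensembl genes in the count table that passed a filter on low counts. IMR90 is a widely used cell line of fibroblasts from human fetal lung. The remaining libraries, 3 each, came from growing control cells and from senescent cells given the vehicle DMSO or TRi-1, which inhibits the TXNRD1 enzyme. All groups compared here were senescent, and the hairpin was the labelled difference between them. The labels do not say how senescence was brought about or what the control cells carried in place of the hairpin. Nor do they say whether the hairpin cells were a pool or 1 clone, or whether the 3 replicates were separate cultures. The p-values thus measure the spread between replicates, pooled over all 15 libraries, and that spread may be technical. There was 1 hairpin condition, and effects of TXNRD1 loss and other effects of this hairpin cannot be told apart.

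TXNRD1 is the cytosolic thioredoxin reductase, a selenoprotein that passes electrons from NADPH to thioredoxin, which in turn keeps peroxiredoxins, methionine sulfoxide reductases and ribonucleotide reductase in their active, reduced state. Fibroblasts that become senescent leave the cell cycle for good and secrete cytokines, chemokines, growth factors and proteases, a state known as the senescence-associated secretory phenotype. Cytosolic DNA, sensed by cGAS and signalled through STING, is one of the routes by which NF-kB turns this secretion on.

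Totals were 25246314, 20710735 and 20586451 counts in the control libraries and 18033076, 21156213 and 19066197 in the hairpin libraries. The mean GC content of transcripts, weighted by counts, was 47.3% to 47.9% in the control libraries and 47.5%, 46.8% and 46.0% in shTXNRD1 replicates 1, 2 and 3, the last being the lowest of the 15 libraries. Genes called higher with the hairpin had a median transcript GC content of 43.9%, genes called lower 50.0% and genes not called 49.6%. Beyond the correction named next, the part of GC content in the changes was not tested. For some lists, a count or median that moved by over 1.5 times with the correction for GC content is given below. The same holds for the fit without shTXNRD1 replicate 3. A list with no such value given may have moved as well.

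TXNRD1 was checked first. It stood at 506, 511 and 528 CPM (a gene's count as a share of the scaled library size) in the 3 control libraries and at 21.04, 21.6 and 25.3 CPM in the 3 hairpin libraries, a 22.7-fold fall with no overlap between the groups. The log2 fold change was -4.51 ± 0.08 (standard error of the edgeR quasi-likelihood fit) with a Benjamini-Hochberg adjusted p of 2.02e-13. Every log2 fold change below is shTXNRD1 over senescent control on this scale, and a gene is said to have risen or fallen where that adjusted p was under 0.05. Growing cells held 1635 ± 130.1 CPM of TXNRD1, DMSO-treated senescent cells 408 ± 19.3 and TRi-1-treated senescent cells 431 ± 11.6 (mean ± SD, n = 3), so the hairpin libraries were the only 3 of the 15 with TXNRD1 under 100 CPM.

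The hairpin libraries differed broadly from the controls. Of the genes tested 50.7% were called, of which 4134 rose (25.8%) and 3971 fell (24.8%), and the median log2 fold change of all genes was -0.01. Changes of at least 2-fold were found in 724 genes that rose (4.53%) and 1430 that fell (8.94%), and changes of at least 4-fold in 139 and 302. The genes that fell held 463863 CPM in the control libraries and 281482 CPM with the hairpin, against 224160 and 315250 CPM for the genes that rose. Groups of 3 libraries did not overlap in 55.4% of genes. Without shTXNRD1 replicate 3, 3677 of these 15994 genes rose and 3787 fell, and with a GC correction 5470 rose and 4192 fell. All genes tested without that replicate numbered 16294, of which 3692 rose and 3810 fell. The main counts of every gene list below are read against these shares: 25.8% of all genes higher, 24.8% lower. These shares hold for the main analysis only. A list count from an alternative belongs beside that alternative's counts over all genes. The median log2 fold change of all genes was 0.07 with the GC correction, and list medians with that correction belong beside it. With the compared groups fitted alone these were 4398 higher and 2942 lower of 15184.

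**Figure D1:**
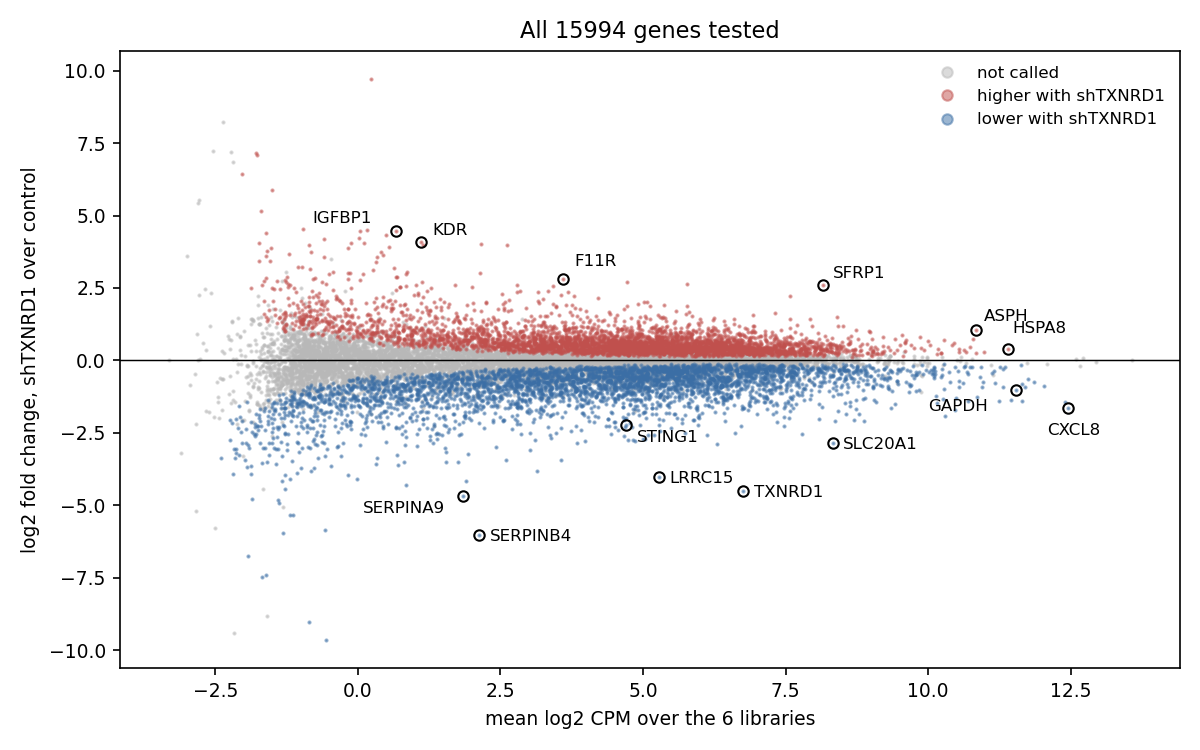
Each point is 1 of the 15994 genes tested, with its mean log2 CPM over the 6 libraries on the x axis and its log2 fold change, shTXNRD1 over control, on the y axis. Genes called higher are red, genes called lower blue and the rest grey, and circles mark genes named in the text. The lower cloud reaches further from 0 than the upper one at most levels, with TXNRD1 at -4.51 and F11R at 2.82.

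In the thioredoxin system itself, 5 of the 28 genes tested rose and 11 fell (median -0.26). Thioredoxin, TXN, the substrate of the enzyme, went from 206, 201 and 222 CPM to 240.0, 268 and 312 CPM (0.38 ± 0.09, adjusted p = 0.00242). The peroxiredoxin PRDX6 rose as well (0.57 ± 0.07), as did the mitochondrial glutaredoxin GLRX5 (0.66 ± 0.10). TXNDC12, a thioredoxin-fold protein of the endoplasmic reticulum, fell from 82.9, 80.4 and 86.3 CPM to 11.8, 12.9 and 13.4 CPM (-2.71 ± 0.07), with all 3 hairpin libraries far below the controls. Nucleoredoxin NXN (-0.83 ± 0.14) and the methionine sulfoxide reductases MSRB3 (-0.80 ± 0.06), MSRB2 (-0.61 ± 0.11) and MSRA (-0.42 ± 0.09), which repair oxidised methionine, fell. The mitochondrial reductase TXNRD2 stood at 15.7, 15.8 and 14.4 CPM in the controls and 12.5, 12.1 and 7.88 CPM with the hairpin (-0.49 ± 0.18, adjusted p = 0.0341). That call was lost in 7 of 17 alternative analyses, with a change of 0.07 after the GC correction. With that correction the list had 6 genes higher and 11 lower and a median of 0.00. Without the lowest-GC library of each group 3 members were called higher.

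Genes of glutathione and NADPH supply were mixed, with 9 of 31 higher and 7 lower. The cystine importer is made of SLC7A11 and SLC3A2, and both rose: SLC7A11 from 86.6, 82.2 and 86.7 CPM to 152, 178 and 199 CPM (1.05 ± 0.10) and SLC3A2 from 52.9, 54.7 and 49.6 CPM to 112, 108 and 103 CPM (1.04 ± 0.07). Cystine taken up this way is the raw material of glutathione. The subunits of the enzyme that starts glutathione synthesis fell, GCLC by 0.53 and GCLM by 0.34 on the log2 scale. IDH1, a cytosolic source of NADPH, rose (0.91 ± 0.06), as did the microsomal glutathione transferase MGST1 (0.59 ± 0.09). Glutathione reductase GSR stood at 0.07 ± 0.07 (adjusted p = 0.39). Of the NRF2 pathway, NFE2L2 (NRF2) itself stood at 0.05 ± 0.08 (adjusted p = 0.679) and its target NQO1 at -0.01 ± 0.09 (adjusted p = 0.921), while BACH1, a repressor of the same sites, rose (0.66 ± 0.08). NFE2L1, a relative of NRF2 that controls proteasome genes, fell from 453, 468 and 448 CPM to 182, 161 and 142 CPM (-1.50 ± 0.09). The count of 7 genes lower in this list was 4 when the compared groups were fitted alone.

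Chemokines, the secreted proteins that attract leukocytes, were the list with the largest share of genes lower: 13 of the 16 tested fell and 1 rose, with a median of -1.27. CXCL8, which attracts neutrophils, went from 9938, 9587 and 10322 CPM in the control libraries to 2825, 3100 and 3656 CPM with the hairpin (-1.64 ± 0.11, adjusted p = 2.08e-08). CXCL10, an interferon-inducible chemokine for T cells, fell from 82.3, 79.1 and 83.9 CPM to 11.6, 12.1 and 14.1 CPM (-2.70 ± 0.08). CXCL6 fell from 345, 337 and 338 CPM to 71.6, 76.9 and 86.9 CPM (-2.12 ± 0.09). In each of these genes every hairpin library was below every control library by a wide margin. CXCL1 (-0.93 ± 0.07), CXCL2 (-1.25 ± 0.07) and CXCL3 (-1.29 ± 0.09) fell too, although these paralogs are nearly identical and the counting may have split reads between them. CXCL5 (-0.74 ± 0.07) and the monocyte attractant CCL2 (-0.88 ± 0.06) fell by less. CCL20 stood at 0.22 ± 0.10 (adjusted p = 0.0938) and was called higher without shTXNRD1 replicate 1. CXCL16, a membrane-bound chemokine, was the 1 member that rose (0.527, 0.692 and 0.75 against 2.999, 2.89 and 2.23 CPM). With only genes at a mean of 5 CPM or more tested, 8 members fell and none rose, since fewer members were tested, and without shTXNRD1 replicate 1 CCL20 made 2 members higher.

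The promoters of 4 of these chemokines are shown because they hold a shared short motif. The windows are the 250 bases before each start site, from RefSeq on GRCh38.p14, written 5′ to 3′ along the gene's own strand, and capitals mark matches to GGNNTTTCC, a sequence of the kind bound by NF-kB, searched on both strands.
CXCL8: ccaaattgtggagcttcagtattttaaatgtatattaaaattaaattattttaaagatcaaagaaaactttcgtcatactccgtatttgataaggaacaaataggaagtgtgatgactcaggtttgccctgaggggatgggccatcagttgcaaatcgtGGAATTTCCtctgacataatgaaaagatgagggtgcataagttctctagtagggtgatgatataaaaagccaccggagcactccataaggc
CXCL6: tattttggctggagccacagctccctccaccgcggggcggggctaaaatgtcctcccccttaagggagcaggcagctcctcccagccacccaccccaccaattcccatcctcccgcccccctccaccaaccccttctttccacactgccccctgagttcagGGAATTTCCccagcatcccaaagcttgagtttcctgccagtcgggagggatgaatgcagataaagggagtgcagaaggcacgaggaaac
CXCL1: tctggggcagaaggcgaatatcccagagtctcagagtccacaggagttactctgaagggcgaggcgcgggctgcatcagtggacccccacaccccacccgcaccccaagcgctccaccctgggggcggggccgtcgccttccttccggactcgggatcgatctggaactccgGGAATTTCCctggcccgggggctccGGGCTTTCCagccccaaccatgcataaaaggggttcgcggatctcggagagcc
CXCL10: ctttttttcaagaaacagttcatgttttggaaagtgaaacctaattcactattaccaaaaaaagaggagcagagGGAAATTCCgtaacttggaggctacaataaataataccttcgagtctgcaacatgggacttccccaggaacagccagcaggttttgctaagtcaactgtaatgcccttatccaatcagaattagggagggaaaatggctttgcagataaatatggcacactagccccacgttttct
The windows are chr4:73740319-73740568 (plus strand) for CXCL8, chr4:73836428-73836677 (plus) for CXCL6, chr4:73869143-73869392 (plus) for CXCL1 and chr4:76023498-76023747 (minus) for CXCL10. CXCL1 has 2 matches, and the CXCL10 match is in the reverse orientation. The match starts 91 bases before the start site in CXCL8 and 89 bases before it in CXCL6.

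Promoters were found for 12 of the chemokine genes tested, and 9 of them (75%) held the motif, against 5.96% of the 11340 promoters of tested genes and 5.48% of all 27305 promoters of the table. The 9 were CXCL1, CXCL2, CXCL3, CXCL5, CXCL6, CXCL8, CXCL10, CXCL11 and CCL20. CCL20 was not called, so a match did not go with a fall in every case, and CCL7 and CXCL12 fell without a match in the window. An AP-1-type motif, TGANTCA, was in 3 of the 12 windows (25%; 4.11% of promoters of tested genes). An interferon-stimulated response element core motif was in 1 of 12, that of CXCL10 (8.33%; 2.38% of promoters of tested genes). A match describes these letters and no binding was measured.

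**Figure D2:**
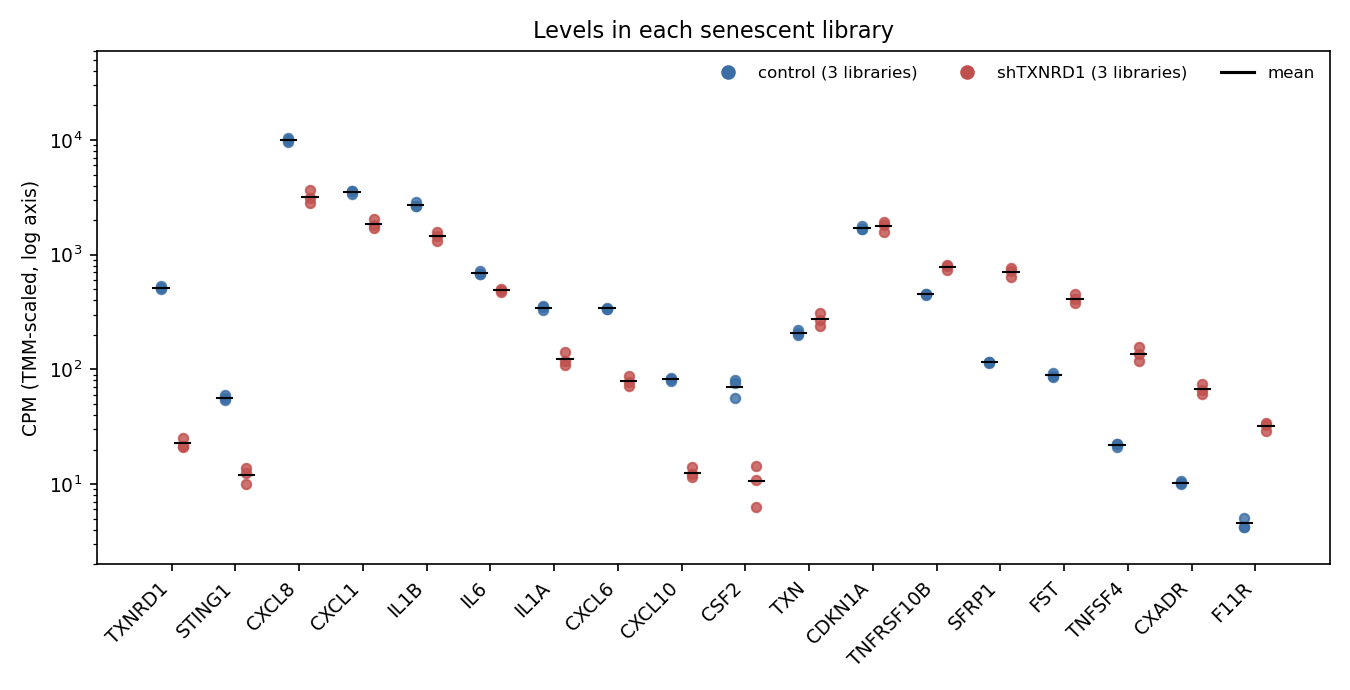
CPM on a log axis for 18 genes in the 3 senescent control libraries (blue) and the 3 shTXNRD1 libraries (red), with the group mean as a black line. TXNRD1, STING1 and the cytokine genes at the left lie lower with the hairpin, CDKN1A overlaps, and the genes at the right, from TNFRSF10B to F11R, lie higher.

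Among the interleukin-1 family genes named here, the ligands fell and the receptors rose. IL1A, the upstream cytokine of the secretory phenotype, fell from 350.4, 328 and 355 CPM to 108, 118 and 141 CPM (-1.49 ± 0.08), and IL1B fell from 2643, 2670 and 2886 to 1322, 1444 and 1568 CPM (-0.92 ± 0.06). The receptor-bound kinases IRAK2 (-0.76 ± 0.05) and IRAK3 (-1.05 ± 0.10), the second of which restrains signalling, also fell. On the receiving side IL1R1 (0.32 ± 0.06) and its partner IL1RAP (0.66 ± 0.11) rose. IL1RL1, the receptor of interleukin-33, went from 0.689, 0.445 and 0.6 CPM to 4.30, 4.99 and 5.40 CPM (3.06 ± 0.23). IL18R1, the interleukin-18 receptor, rose from 5.19, 3.56 and 6.001 to 11.7, 12.8 and 13.8 CPM (1.38 ± 0.18). In all, 7 of the 20 genes tested rose and 5 fell (median -0.20). With the GC correction 6 rose and 6 fell, and the median was 0.12. With genes under a mean of 5 CPM left out, 4 rose.

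In the interleukin-6 family, too, the ligand IL6 fell and its own receptor rose. IL6 went from 679, 678 and 723 CPM to 473, 496 and 499 CPM (-0.50 ± 0.05), without overlap. IL6R, its receptor, went from 11.8, 11.9 and 13.2 CPM to 29.8, 32.2 and 34.2 CPM (1.39 ± 0.07) and LIFR rose by 0.59. The feedback inhibitors moved in opposite directions: SOCS3 fell (-1.20 ± 0.09) and SOCS2 rose (1.33 ± 0.12). Of 19 genes tested 4 rose and 10 fell (median -0.32), or 6 lower when the compared groups were fitted alone. With the GC correction 4 rose and 8 fell, and the median was -0.05.

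Factors that act on blood cells fell in 7 of 12 and rose in 1 (median -0.86). With the GC correction 8 fell and 1 rose, and the median was -0.44. CSF2 (GM-CSF) went from 75.5, 80.1 and 56.2 CPM to 14.5, 10.8 and 6.34 CPM (-2.74 ± 0.23, adjusted p = 8.29e-07), and TSLP, which activates dendritic cells, from 12.2, 11.2 and 13.1 CPM to 3.95, 3.98 and 4.26 CPM (-1.58 ± 0.13). IL24 was the 1 that rose, from 24.4, 23.2 and 25.4 CPM to 59.9, 68.4 and 72.8 CPM (1.46 ± 0.08). IL15 (-0.88 ± 0.20) and IL32 (-0.83 ± 0.15) fell.

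Among NF-kB subunits and regulators 15 of 24 fell and 1 rose (median -0.55). NFKBIA, the inhibitor that NF-kB itself induces, went from 119, 117 and 115 CPM to 76.9, 75.8 and 71.9 CPM (-0.64 ± 0.05), and NFKB1, the p105/p50 subunit, from 74.98, 74.2 and 74.9 to 51.4, 49.6 and 53.7 CPM (-0.53 ± 0.05). TRAF1 (-1.55 ± 0.16), an adaptor, and TNIP3 (-1.54 ± 0.20), an inhibitor, fell by more. The deubiquitinase TNFAIP3 stood at -0.08 ± 0.06 (adjusted p = 0.316) and the kinase CHUK at -0.01 ± 0.10 (adjusted p = 0.945). The 1 member called higher, IKBKB, lost its call in 12 of 17 alternatives. With the GC correction 11 members fell and 3 rose, with a median of -0.19. With the compared groups fitted alone 8 fell and 3 rose, and the cause was not tested.

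Of 21 AP-1, EGR and C/EBP factors, which act with NF-kB on secretory genes, 10 fell and 3 rose. EGR1 went from 64.6, 66.3 and 66.5 CPM to 23.6, 22.4 and 23.4 CPM (-1.51 ± 0.06), and FOS (-1.61 ± 0.15) and ATF3 (-1.11 ± 0.07) fell. CEBPD fell (-0.97 ± 0.09), but its change was 0.00 with the GC correction, and CEBPB, its partner in the secretory phenotype, stood at 0.26 ± 0.16 (adjusted p = 0.191) and was called higher with that correction and without shTXNRD1 replicate 3. MAF rose from 0.284, 0.198 and 0.3 CPM to 2.40, 1.66 and 2.38 CPM (3.01 ± 0.30), a low level throughout. Members called higher numbered 9 with the GC correction, which also put 9 lower, and 5 without shTXNRD1 replicate 3. The list's median was -0.41, or 0.00 with the GC correction.

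Genes that sense DNA and RNA gave a mixed picture, with 10 of 27 lower and 6 higher (median -0.23). With the GC correction 9 were lower and 7 higher, and the median was -0.05. STING1, the adaptor downstream of cGAS, went from 55.7, 59.5 and 54.4 CPM to 13.8, 12.5 and 9.91 CPM (-2.23 ± 0.11, adjusted p = 1.26e-09), a 4.68-fold fall. CGAS itself stood at 5.35, 4.45 and 4.90 CPM in the controls and 4.35, 3.98 and 5.15 CPM with the hairpin (-0.13 ± 0.13, adjusted p = 0.438), which did not pass the test. The kinase TBK1, next after STING1, rose (0.40 ± 0.09). NLRP1, an inflammasome sensor, fell from 49.9, 47.6 and 44.6 to 18.1, 20.8 and 17.8 CPM (-1.32 ± 0.07), while CASP1, the protease that inflammasomes activate, rose from 20.97, 21.3 and 24.3 to 32.4, 37.5 and 43.8 CPM (0.77 ± 0.11). SAMHD1, which degrades deoxynucleotides, fell (-1.06 ± 0.08), and the DNA-binding protein IFI16 rose (0.46 ± 0.09).

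Double-stranded RNA response genes fell in 11 of 21 and rose in 2 (median -0.44). IFIT3 went from 13.8, 13.5 and 13.3 CPM to 5.60, 6.21 and 6.64 CPM (-1.14 ± 0.09) and DDX60 from 16.6, 14.6 and 15.6 CPM to 6.85, 7.22 and 6.69 CPM (-1.17 ± 0.11). The RNA sensor IFIH1 (MDA5) fell (-0.91 ± 0.19), whereas RIGI stood at 0.01 ± 0.09 (adjusted p = 0.919). EIF2AK2, the kinase PKR, fell (-0.44 ± 0.09), as did ADAR (-0.34 ± 0.05), which edits double-stranded RNA. IFIT1 (0.57 ± 0.15) and STAT2 (0.29 ± 0.06), a subunit of the interferon-activated transcription factor, were the members that rose. At a mean of 5 CPM or more, 6 members fell.

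The machinery that processes and uses small RNAs, on which a hairpin depends, had 6 of 16 genes higher and 6 lower. Argonaute AGO4 rose from 23.5, 23.7 and 25.2 CPM to 46.1, 55.1 and 59.6 CPM (1.15 ± 0.10) and the exporter of hairpin precursors, XPO5, from 60.8, 58.7 and 67.9 to 87.2, 94.7 and 109 CPM (0.63 ± 0.08). TNRC6B, a silencing partner of argonautes, fell from 56.1, 59.7 and 62.8 to 25.1, 25.3 and 27.6 CPM (-1.20 ± 0.06), whereas AGO2, the slicing argonaute, stood at -0.05 ± 0.09 (adjusted p = 0.636). Without control replicate 3, 3 members fell.

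Death and survival genes of the BCL2, caspase and inhibitor-of-apoptosis families had 10 higher and 5 lower of 28. BIRC3, an NF-kB-induced inhibitor of apoptosis, fell from 53.1, 49.1 and 55.2 CPM to 8.80, 8.88 and 9.07 CPM (-2.56 ± 0.10), and BCL2A1 from 14.8, 13.6 and 18.5 to 5.10, 6.17 and 7.04 CPM (-1.36 ± 0.15). The activator BCL2L11 (BIM) rose from 2.19, 1.83 and 3.05 to 8.30, 10.3 and 9.51 CPM (1.99 ± 0.19). BID, a pro-apoptotic BCL2 relative, fell (-1.03 ± 0.07). The survival gene MCL1 rose (0.33 ± 0.09), BCL2 stood at -0.38 ± 0.28 (adjusted p = 0.278) and BCL2L1 at -0.03 ± 0.12 (adjusted p = 0.832).

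Among receptors of TNF-related ligands, the death receptors named here rose and the decoys named here fell. TNFRSF10B (DR5) rose from 452, 452 and 449 CPM to 738, 806 and 801 CPM (0.79 ± 0.05) and TNFRSF10A (DR4) from 22.0, 21.2 and 23.7 to 33.2, 36.7 and 39.1 CPM (0.71 ± 0.07), while the decoys TNFRSF10C (-0.69 ± 0.15) and TNFRSF10D (-0.58 ± 0.05), which bind the same ligand without signalling, fell. FAS rose (0.70 ± 0.08). Of the ligands TNFSF4 (OX40 ligand) went from 22.3, 20.96 and 22.3 CPM to 118, 136 and 156 CPM (2.64 ± 0.10), and TNFSF15 fell from 518, 492 and 537 to 206, 229.7 and 252 CPM (-1.17 ± 0.09). The list held 5 higher and 5 lower of 21 (23.8% each), near the shares of all genes, so as a whole it did not stand out.

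Of 29 p53 target genes 14 rose and 3 fell (median 0.29). TP53INP1 went from 81.7, 79.8 and 86.6 CPM to 163, 183 and 214 CPM (1.18 ± 0.10), SESN1, a sestrin, from 16.5, 18.2 and 16.8 to 32.0, 35.7 and 40.6 CPM (1.07 ± 0.10) and BTG1 from 97.8, 100.01 and 101 to 178, 199 and 227 CPM (1.02 ± 0.07). The 2 targets most used as readouts of p53 gave no call in the main analysis: CDKN1A (p21) held 1685, 1795 and 1666 CPM in the controls and 1912, 1812 and 1570 CPM with the hairpin (0.04 ± 0.09, adjusted p = 0.744), and MDM2 stood at 0.08 ± 0.08 (adjusted p = 0.433). The correction for GC content put CDKN1A past the threshold, at 0.40. The repair gene DDB2 fell (-0.72 ± 0.08).

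Genes of mitosis and DNA replication fell more often than they rose. In the mitosis list 22 of 32 fell and 2 rose (median -0.64), among them BIRC5 (survivin), from 7.02, 7.81 and 6.30 CPM to 1.15, 1.36 and 1.64 CPM (-2.35 ± 0.13), and CKAP2L, from 10.7, 9.99 and 10.2 to 1.95, 2.45 and 3.07 CPM (-2.05 ± 0.13). AURKA was an exception, at 25.4, 25.4 and 26.9 CPM in the controls and 41.2, 44.9 and 49.2 CPM with the hairpin (0.80 ± 0.08). In the DNA replication list 19 of 34 fell and 3 rose (median -0.39), with the licensing factor CDC6 going from 9.21, 8.85 and 10.001 CPM to 2.90, 2.89 and 3.37 CPM (-1.61 ± 0.10) and thymidine kinase TK1 from 5.60, 6.53 and 4.80 to 1.0997, 0.919 and 0.743 CPM (-2.61 ± 0.34). RRM2, a subunit of ribonucleotide reductase, the thioredoxin-dependent enzyme that makes deoxynucleotides, fell (-1.12 ± 0.09), as did its partner RRM1 (-0.39 ± 0.10). With the GC correction the replication list had 17 lower and 5 higher and a median of -0.23, and without the lowest-GC library of each group 1 member rose. Recombination and Fanconi genes, of DNA repair, had 6 higher and 5 lower of 34, and 9 lower with the GC correction.

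The regulators of the cycle did not move as a block. CDK1 (-1.39 ± 0.11), CCNE1 (-1.37 ± 0.11) and MYBL2 (-2.92 ± 0.29) fell, whereas CDK2 rose from 42.3, 39.7 and 42.7 CPM to 85.1, 100.2 and 107 CPM (1.23 ± 0.08). Among the inhibitors, CDKN2A (p16 and ARF) rose from 10.7, 10.4 and 11.4 to 20.4, 19.0 and 18.2 CPM (0.83 ± 0.08), and its neighbour CDKN2B (p15) fell from 78.2, 73.0 and 82.0 to 35.9, 38.9 and 41.0 CPM (-1.01 ± 0.07). CDKN1C (p57) rose from 1.09, 1.14 and 1.60 to 4.15, 4.29 and 4.11 CPM (1.71 ± 0.22, or 2.40 with the GC correction). The lamin LMNB1, a gene that goes down in senescence, stood at 0.05 ± 0.11 (adjusted p = 0.755). The list had 10 higher and 16 lower of 35.

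Complement, acute-phase and prostaglandin genes also fell more often than they rose. Complement and acute-phase genes had 13 lower and 2 higher of 20 (median -0.48). PTX3, a soluble pattern receptor, fell from 361, 334 and 358 CPM to 78.2, 92.8 and 98.3 CPM (-1.97 ± 0.08) and complement factor B, CFB, from 20.6, 16.4 and 18.2 to 5.60, 6.17 and 7.04 CPM (-1.55 ± 0.16). SAA1 (-1.65 ± 0.12) and SAA2 (-1.88 ± 0.09), near-identical serum amyloid genes, fell, and CD55, which shields cells from complement, rose from 41.4, 42.9 and 43.9 to 73.6, 74.9 and 90.9 CPM (0.90 ± 0.09). Prostaglandin genes had 10 lower and 1 higher of 18. TBXAS1, which makes thromboxane, went from 52.4, 52.3 and 49.5 CPM to 12.2, 12.6 and 13.2 CPM (-2.02 ± 0.06), while PTGS2 (COX-2) rose from 352, 342 and 367 to 389, 429 and 503.6 CPM (0.32 ± 0.08). Without shTXNRD1 replicate 1 a second member of that list was called higher, as with the GC correction.

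The plasminogen and serpin list had 10 lower and 3 higher of 18 (median -0.68). SERPINB4 went from 33.0, 33.0 and 33.5 CPM to 0.25, 0.569 and 0.694 CPM (-6.02 ± 0.18), with the caution that SERPINB3 is a near-identical neighbour. SERPINE2, a thrombin inhibitor, went from 838, 804 and 867 CPM to 211, 242 and 249.7 CPM (-1.84 ± 0.06) and the plasminogen activator PLAT from 678, 711 and 672 to 294, 273 and 232 CPM (-1.37 ± 0.09). Urokinase, PLAU, stood at -0.13 ± 0.06 (adjusted p = 0.092). Of the metalloproteinases MMP3 fell from 5624, 5473 and 6027 CPM to 2742, 3095 and 3476 CPM (-0.88 ± 0.08) and MMP10 fell (-0.82 ± 0.09), but the collagenase MMP1 stood at -0.21 ± 0.09 (adjusted p = 0.0538), and MMP16, a membrane type, rose (1.002 ± 0.10). The list had 8 lower and 2 higher of 17, but 5 lower without control replicate 1 or without shTXNRD1 replicate 2 and 4 lower with the compared groups fitted alone. MMP1 passed the test in 7 alternatives.

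Insulin-like growth factor genes had 6 higher and 7 lower of 17 (median -0.25). With the GC correction 6 were higher and 5 lower, and the median was -0.08. IGFBP5 fell from 8809, 9197 and 8767 CPM to 3537, 3280 and 3017 CPM (-1.45 ± 0.07) and IGFBP3 from 1074, 1045 and 1072 to 697, 719 and 683 CPM (-0.60 ± 0.04). Binding proteins of this family hold the growth factors outside the cell. IGFBP1 moved the other way, from 0.365, 0.198 and 0.3 CPM to 6.15, 6.26 and 7.19 CPM (4.46 ± 0.29), and the insulin receptor substrate IRS2 rose (1.03 ± 0.10).

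TGF-beta and activin genes had 19 lower and 5 higher of 29 (median -0.55). The ligands TGFB2 (196, 192 and 210.2 against 63.5, 66.2 and 75.1 CPM, -1.55 ± 0.08) and INHBA, the activin A subunit (1157, 1116 and 1186 against 383, 407 and 434 CPM, -1.50 ± 0.06), fell without overlap. THBS1, which releases latent TGF-beta, fell from 4443, 4477 and 4608 CPM to 1678, 1755 and 1832 CPM (-1.36 ± 0.05). SMAD7, a target and inhibitor of the pathway, fell (-0.86 ± 0.08). The antagonist follistatin, FST, which binds activin, went the other way, from 87.3, 86.1 and 92.7 CPM to 379, 409 and 456 CPM (2.23 ± 0.07), and SMAD3 rose (0.60 ± 0.05).

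In the related BMP list 10 of 20 rose and 5 fell (median 0.44). ID1, ID2 and ID4 encode inhibitors of DNA binding and are textbook BMP targets, and all rose: ID1 from 2.72, 2.67 and 3.30 CPM to 13.1, 11.1 and 9.66 CPM (1.96 ± 0.19), ID2 by 1.32 and ID4 by 3.75 on the log2 scale. ID3 stood at 0.46 ± 0.33 (adjusted p = 0.274). The BMP antagonist GREM1 fell from 2571, 2474 and 2683 CPM to 707, 789 and 880.2 CPM (-1.70 ± 0.08), the ligand BMP4 fell (-1.54 ± 0.12) and BMP5 rose (1.41 ± 0.10). At a mean of 5 CPM or more 6 members rose.

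Collagens fell in 18 of 26 and rose in 1 (median -0.92). COL8A1 went from 855, 857 and 846 CPM to 210.3, 203 and 194 CPM (-2.07 ± 0.05), COL10A1 from 20.2, 19.3 and 19.3 to 1.70, 1.71 and 1.93 CPM (-3.46 ± 0.11) and COL5A1 from 548, 601 and 476 to 115, 89.4 and 74.0 CPM (-2.54 ± 0.19). COL1A1 read 4720, 5578 and 3968 CPM in the controls and 3832, 2336 and 1450 CPM in the hairpin libraries 1, 2 and 3 (-0.91 ± 0.34, adjusted p = 0.0427), a wide spread that tracked the GC content of the libraries, and its call was lost in 9 of 17 alternatives. COL1A2, the second chain of the same fibre, stood at 0.07 ± 0.10 (adjusted p = 0.601). The 1 member called higher, COL11A1, lost its call in 7 alternatives. With the GC correction 19 collagens fell and 3 rose, and without shTXNRD1 replicate 3, 2 rose.

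Other matrix genes went both ways, with 16 of 31 lower and 7 higher. NID1, a basement membrane linker, fell from 191, 199 and 189 CPM to 62.6, 63.3 and 60.5 CPM (-1.63 ± 0.05), but its paralog NID2 rose from 199, 196 and 198 to 314, 319.5 and 313 CPM (0.67 ± 0.04). Fibrillin FBN1 fell (-1.08 ± 0.06), decorin DCN rose from 553, 535 and 582 to 895, 1002 and 1140 CPM (0.86 ± 0.08) and fibronectin FN1 stood at 0.01 ± 0.05 (adjusted p = 0.852). CD44, the hyaluronan receptor, fell from 5079, 4986 and 5454 CPM to 1779, 1957 and 2195 CPM (-1.39 ± 0.08). Integrins and their adaptors had 13 lower and 2 higher of 24. The collagen receptor ITGA2 fell from 841, 830.0 and 893 to 297, 329 and 373 CPM (-1.36 ± 0.09) and ITGB3 from 196, 195 and 196 to 80.1, 92.3 and 89.2 CPM (-1.17 ± 0.05), while the laminin receptor ITGA6 rose (0.89 ± 0.09) and ITGB1, the shared partner of many, stood at 0.05 ± 0.09 (adjusted p = 0.686).

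Of 33 targets of SRF and YAP, regulators of contractile and cytoskeletal genes, 18 fell and 8 rose (median -0.34). With the GC correction 17 fell and 8 rose, and the median was -0.10. Tropomyosin TPM1 fell from 1159, 1109 and 1177 CPM to 343, 374 and 394 CPM (-1.63 ± 0.06), LMOD1 from 58.8, 63.5 and 64.2 to 15.5, 12.8 and 9.81 CPM (-2.29 ± 0.14) and smooth muscle actin ACTA2 from 574, 562 and 617 to 351, 398 and 349 CPM (-0.67 ± 0.06). The best known YAP targets CCN1 (-0.20 ± 0.04) and CCN2 (-0.19 ± 0.04) fell by little, and ANKRD1, another, rose from 14.6, 13.9 and 13.1 CPM to 42.7, 54.2 and 54.5 CPM (1.86 ± 0.12).

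Cell junction genes rose in 11 of 28 and fell in 8. F11R, the junctional adhesion molecule JAM-A, went from 4.26, 5.09 and 4.25 CPM to 29.2, 32.8 and 34.0 CPM (2.82 ± 0.15), and CXADR, the coxsackie and adenovirus receptor of tight junctions, from 10.6, 10.1 and 10.1 CPM to 60.9, 66.2 and 73.9 CPM (2.70 ± 0.10). Claudin CLDN1 (0.79 ± 0.08), occludin OCLN (1.19 ± 0.12) and desmoplakin DSP (1.36 ± 0.08) rose. The relatives JAM2 (-0.79 ± 0.12) and JAM3 (-0.40 ± 0.05) fell, as did cadherin CDH6 (-1.57 ± 0.08).

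Growth factor genes of the EGF family fell in 6 of 10 and rose in none (also none at an unadjusted edgeR p under 0.05, by DESeq2 or by limma-voom, and 1 without shTXNRD1 replicate 3), and those of the FGF, PDGF and VEGF families fell in 15 of 26 and rose in 3. HBEGF fell from 45.3, 44.4 and 44.0 CPM to 7.15, 9.80 and 11.1 CPM (-2.25 ± 0.11) and epiregulin EREG from 294, 283 and 309.8 to 138, 154 and 171 CPM (-0.94 ± 0.09). PDGFRB, a receptor of mesenchymal cells, fell from 139, 153 and 136 to 46.8, 44.0 and 33.0 CPM (-1.79 ± 0.13) and NRP2 from 133, 127 and 138 to 51.8, 56.1 and 52.7 CPM (-1.31 ± 0.05). With the GC correction the second list had 14 lower and 5 higher, and at a mean of 5 CPM or more 1 member rose. VEGFA stood at -0.02 ± 0.08 (adjusted p = 0.842). The VEGF receptors moved apart, with FLT1 going from 11.8, 12.4 and 11.5 CPM to 3.85, 3.89 and 4.06 CPM (-1.59 ± 0.10) and KDR from 0.568, 0.494 and 0.35 CPM to 7.70, 7.96 and 9.07 CPM (4.10 ± 0.26).

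In the WNT and NOTCH list, 9 of 31 rose and 10 fell. The secreted WNT antagonist SFRP1 went from 114, 115 and 116 CPM to 633, 717 and 771 CPM (2.62 ± 0.07), and DKK1, another, from 5.84, 6.18 and 5.20 to 18.2, 20.8 and 24.6 CPM (1.88 ± 0.17), while the relative DKK2 fell from 9.98, 8.40 and 9.25 CPM to 0.9, 0.613 and 0.942 CPM (-3.50 ± 0.18). The receptors FZD4 (1.58 ± 0.11) and FZD6 (-1.65 ± 0.08) moved in opposite directions. Among axon guidance genes, 9 of 35 rose and 11 fell. The receptor ROBO2 fell from 72.8, 74.5 and 81.1 to 9.95, 10.3 and 12.9 CPM (-2.78 ± 0.11) and SLIT2, a ligand of the same system, rose from 3.16, 2.72 and 3.05 to 12.2, 12.8 and 12.9 CPM (2.08 ± 0.14). Ephrin EFNB2 rose from 16.2, 15.7 and 16.4 to 61.7, 64.8 and 66.5 CPM (1.999 ± 0.06). With the GC correction 16 axon guidance genes were called higher.

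Potassium and calcium channel genes fell in 20 of 32 and rose in 4 (median -0.75). The potassium channels KCND3, from 1.5004, 1.73 and 0.9 CPM to 0.2, 0.175 and 0.198 CPM (-2.82 ± 0.26), and KCNH1, from 6.89, 6.48 and 5.90 to 0.75, 1.27 and 0.892 CPM (-2.71 ± 0.16), fell furthest. CACNA1C, the pore of the L-type calcium channel, fell from 8.19, 9.34 and 8.15 to 2.999, 3.24 and 2.38 CPM (-1.57 ± 0.13), and KCNMA1, a calcium-activated channel, fell (-1.10 ± 0.05). KCNJ8, an ATP-sensitive channel subunit, rose from 0.446, 0.247 and 0.1 to 0.85, 0.875 and 1.09 CPM (1.75 ± 0.42, or 2.39 without control replicate 1). At a mean of 5 CPM or more 13 members fell, and with the GC correction 18 fell and the median was -0.47.

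Cholesterol synthesis and uptake genes fell in 23 of 32 and rose in 3 (median -0.59). HMGCS1, which commits acetyl-CoA to the pathway, went from 84.3, 80.1 and 88.0 CPM to 15.5, 17.5 and 21.01 CPM (-2.22 ± 0.11) and MSMO1, a later enzyme of the pathway, from 125, 122 and 125 to 37.4, 40.2 and 46.0 CPM (-1.59 ± 0.08). Genes that lower cell cholesterol were divided: the exporter ABCA1 fell (-0.97 ± 0.07), and ABCG1 (0.80 ± 0.11) and MYLIP (0.97 ± 0.10) rose. With the GC correction 21 members of the list fell and 6 rose. A sterol-response-type motif, TCACNCCAC, was in 1 of 26 promoter windows of tested cholesterol genes (3.85%), against 0.838% of promoters of tested genes.

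Fatty acid genes fell in 19 of 33 and rose in 5 (median -0.39). The desaturases FADS1, from 227, 225 and 237 CPM to 46.9, 47.7 and 49.9 CPM (-2.25 ± 0.05), and SCD, from 176, 175 and 188 to 39.2, 43.2 and 43.7 CPM (-2.09 ± 0.07), make unsaturated fatty acids and fell without overlap. ACACB, a carboxylase that restrains fatty acid oxidation, fell from 15.3, 15.1 and 13.1 to 2.85, 3.06 and 2.58 CPM (-2.36 ± 0.11). Without shTXNRD1 replicate 1 the members called higher numbered 8.

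Glycolysis and hypoxia genes had 19 lower and 6 higher of 36. Hexokinase HK2 fell from 316, 311 and 304 CPM to 95.7, 109 and 105 CPM (-1.59 ± 0.06), pyruvate kinase PKM from 2718, 2768 and 2650 to 1117, 1075 and 885 CPM (-1.40 ± 0.10) and GAPDH, often used as a reference gene, from 4302, 4513 and 4097 to 2495, 2256 and 1569 CPM (-1.03 ± 0.17). The glucose transporter SLC2A3 rose from 89.7, 89.0 and 94.1 to 253, 288 and 301 CPM (1.62 ± 0.07), and SLC2A1 rose (0.45 ± 0.10).

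Nuclear-encoded genes of the respiratory chain rose in 17 of 37 and fell in 2 (median 0.20), and those of the mitochondrial ribosome rose in 17 of 31 and fell in 1 (median 0.36). The complex I subunit NDUFV2 went from 109, 100.4 and 107 CPM to 146, 163 and 189 CPM (0.66 ± 0.08) and the complex III subunit UQCRFS1 from 59.1, 56.3 and 59.7 to 76.6, 88.5 and 103 CPM (0.62 ± 0.10). In the mitochondrial ribosome MRPS35 rose from 49.6, 49.7 and 50.4 to 70.0, 77.1 and 86.5 CPM (0.64 ± 0.09). None of the 17 respiratory genes and 1 of the 17 mitochondrial ribosome genes that rose did so by 2-fold or more. Without shTXNRD1 replicate 1 a second mitochondrial ribosome gene was called lower, as with the GC correction.

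Genes of ribosome assembly in the nucleolus gave the most one-sided list. Of 33 tested 26 rose and none fell (median 0.39), and none was lower at an unadjusted edgeR p under 0.05, by DESeq2 or by limma-voom. POLR1C, a subunit of RNA polymerases I and III, went from 19.9, 22.6 and 21.002 CPM to 36.6, 41.4 and 43.4 CPM (0.94 ± 0.08), POLR1B from 28.4, 27.5 and 27.0 to 42.8, 46.8 and 49.3 CPM (0.74 ± 0.09), RRS1, an assembly factor, from 18.8, 16.6 and 16.2 to 31.7, 31.2 and 29.7 CPM (0.84 ± 0.10) and nucleophosmin NPM1 from 634, 585 and 653 to 841, 977 and 1067 CPM (0.63 ± 0.09). Without shTXNRD1 replicate 1 a single member was called lower. Of the ribosomal proteins themselves 12 of 41 rose and none fell (none at an unadjusted edgeR p under 0.05 or by limma-voom, 1 by DESeq2), a share of risers near that of all genes, with RPS23 at 0.55 ± 0.07 and RPL5 at 0.44 ± 0.06. With shTXNRD1 replicate 1 left out, 4 ribosomal protein genes were called lower.

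Heat shock and chaperone genes rose in 18 of 29 and fell in 2 (median 0.31). HSPA8, the constitutive HSP70, went from 2367, 2262 and 2496 CPM to 2715, 3092 and 3474 CPM (0.38 ± 0.09), HSP90AB1 from 1116, 1078 and 1208 to 1473, 1650 and 1848 CPM (0.55 ± 0.08) and the mitochondrial chaperonin HSPE1 from 73.3, 67.4 and 73.5 to 100.4, 114 and 126 CPM (0.67 ± 0.10). The strongly inducible HSPA1A stood at -0.68 ± 0.32 (adjusted p = 0.0932) and DNAJB1 at 0.12 ± 0.05 (adjusted p = 0.069). HSPA1A was called lower without shTXNRD1 replicate 1. The small heat shock protein CRYAB fell (-1.52 ± 0.13). Splicing factors rose in 17 of 32 and fell in 2, the latter being MBNL1, from 217, 212 and 238 CPM to 93.0, 99.4 and 111 CPM (-1.14 ± 0.08), and MBNL2 (-0.64 ± 0.08), paired RNA-binding regulators of alternative exons. SRSF6 rose (0.69 ± 0.09), as did SRSF11 (0.75 ± 0.08). Without shTXNRD1 replicate 1, 5 chaperone genes and 4 splicing genes were called lower, and with the GC correction 4 splicing genes.

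The secretory pathway, through which cytokines and matrix leave the cell, had 17 lower and 3 higher of 32 (median -0.21). The COPII coat genes SEC23A (299, 290.0 and 317 against 125, 144 and 160.2 CPM, -1.08 ± 0.09) and SEC24D (-0.92 ± 0.06) and the small GTPase SAR1B (95.5, 91.3 and 92.3 against 30.2, 32.1 and 38.6 CPM, -1.47 ± 0.09) fell, while SAR1A rose (0.36 ± 0.08). The members called higher numbered 1 without control replicate 2 or without shTXNRD1 replicate 3, and 5 with the GC correction. In antigen presentation by MHC class I, CD274 (PD-L1) fell from 43.7, 40.4 and 44.1 to 21.7, 22.2 and 24.7 CPM (-0.90 ± 0.10) and TAP2, a peptide transporter, fell (-0.60 ± 0.06), whereas B2M rose (0.39 ± 0.08). The stress ligands of natural killer cells rose: ULBP1 from 16.7, 16.1 and 16.8 CPM to 43.1, 45.3 and 47.9 CPM (1.46 ± 0.07), ULBP2 by 0.91 and ULBP3 by 1.02. That list had 6 higher and 9 lower of 22, and 12 higher with the GC correction.

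Lysosomal genes were even, with 13 of 34 higher and 13 lower (median -0.24). With the GC correction 16 were higher and 10 lower, and the median was 0.16. Cathepsin CTSL rose from 142, 129 and 138 CPM to 281, 320.2 and 353 CPM (1.22 ± 0.08) and GLB1, the gene of senescence-associated beta-galactosidase, from 129, 134 and 141 to 169, 173 and 182 CPM (0.38 ± 0.05). Autophagy genes rose in 10 of 31 and fell in 4, with ATG14 at 0.70 ± 0.06 and PIK3C3, the lipid kinase that starts autophagosomes, at 0.66 ± 0.09. The GC correction raised the count of risers to 17, and that of all genes from 4134 to 5470.

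**Figure D3:**
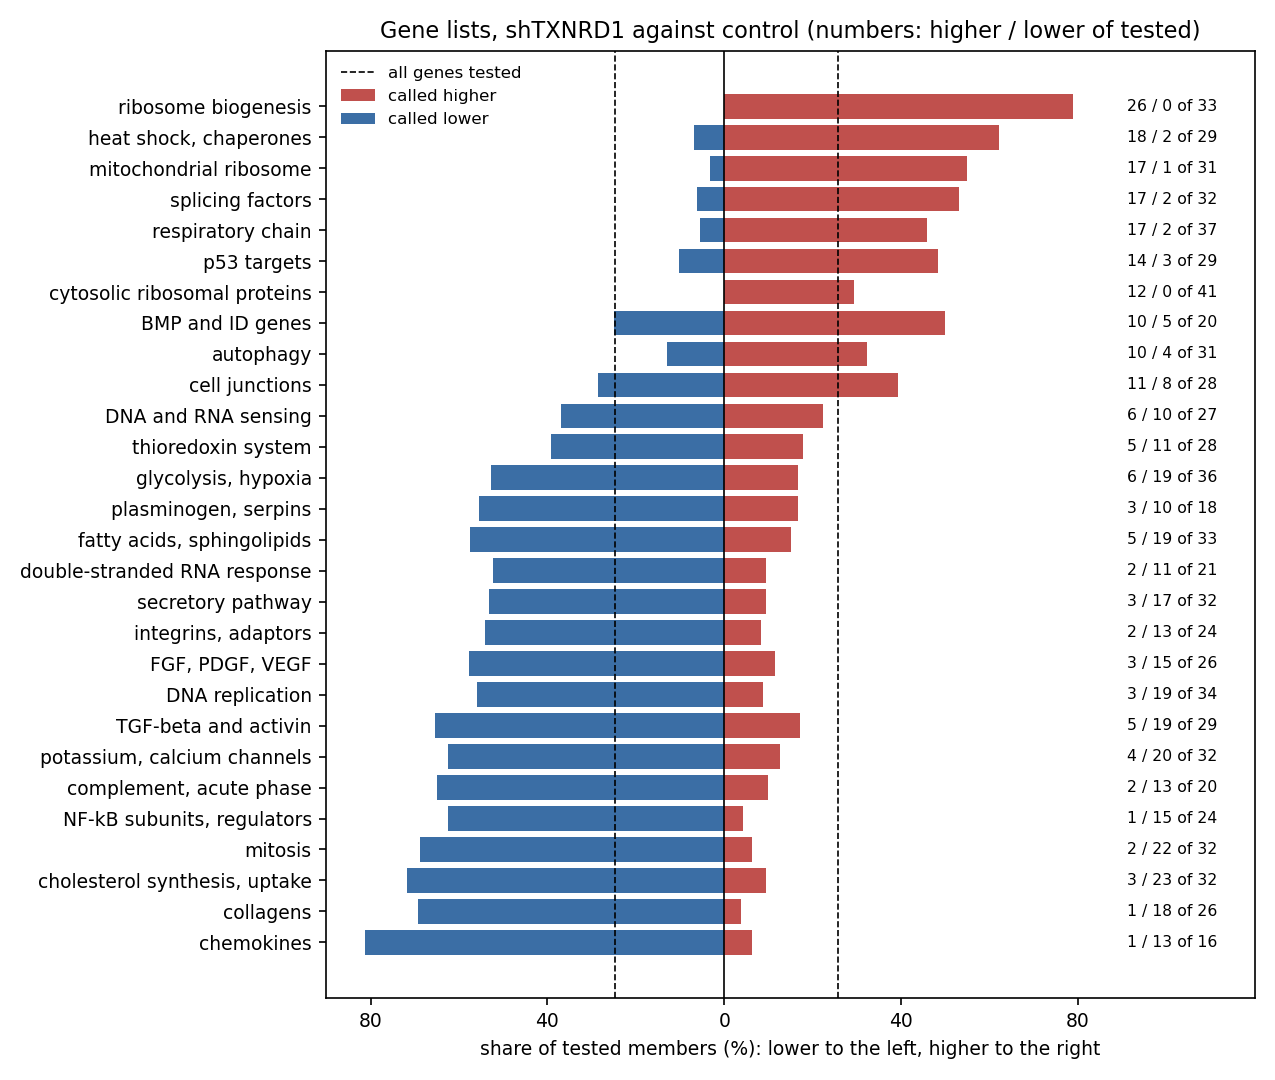
Shares of tested members called higher (red, to the right) and lower (blue, to the left) in 28 gene lists, in percent on the x axis, with the counts at the right and dashed lines at the shares over all genes tested (25.8% and 24.8%). Chemokines, collagens, cholesterol synthesis and mitosis stand at the bottom with 13 of 16, 18 of 26, 23 of 32 and 22 of 32 lower, and ribosome biogenesis at the top with 26 of 33 higher.

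Markers of the labelled cell type were present. The fibroblast markers summed to 17208 to 19850 CPM in the controls and 12389 to 15873 CPM with the hairpin, with DPT at 0 in all 6 libraries. Of the 13 tested, 8 fell and 4 rose. Vimentin VIM fell from 2893, 2854 and 2875 CPM to 1134, 1195 and 1236 CPM (-1.27 ± 0.05), while the transcription factor TBX5 rose (1.09 ± 0.07), as did decorin above. The 8 smooth muscle markers summed to 799 to 833 CPM and then 427 to 496 CPM, with 6 of the 8 lower, among them the coactivator MYOCD (116, 119 and 128 against 27.6, 29.8 and 30.0 CPM, -2.05 ± 0.08). The 11 leukocyte markers summed to 80.1 to 89.6 CPM and 20.9 to 40.3 CPM, most of it the lysosomal gene CD68, with CD3E and TYROBP among those at 0. The 11 epithelial markers summed to 50.6 to 56.8 CPM and 55.7 to 67.9 CPM, with KRT5, KRT14, SFTPC and NKX2-1 at 0. The 9 endothelial markers summed to 163 to 175 CPM and 107 to 134 CPM, mostly TEK. The 10 neural markers summed to 75.7 to 111 CPM and 56.9 to 112 CPM, and in that list SCG2 rose from 1.18, 1.58 and 1.75 to 21.3, 22.5 and 27.1 CPM (3.98 ± 0.16). The part of these markers in the changes of the inflammatory and matrix lists was not tested, and in bulk RNA fewer cells of a type and less RNA per cell cannot be told apart.

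Among genes averaging 3 or more on the log2 CPM scale, the largest falls after TXNRD1 were in LRRC15, a surface protein of activated fibroblasts, from 154, 161 and 153 CPM to 9.45, 9.67 and 9.51 CPM (-4.03 ± 0.06), RASGRP3, an activator of RAS-family GTPases, from 30.3, 33.2 and 33.8 to 2.10, 2.71 and 2.08 CPM (-3.81 ± 0.13), and GBP2, an interferon-induced GTPase, from 38.4, 35.9 and 40.5 to 3.70, 3.33 and 3.62 CPM (-3.43 ± 0.08). The phosphate importer SLC20A1 fell from 872, 821 and 904 CPM to 104, 118 and 140.0 CPM (-2.84 ± 0.10), PMP22 from 37.0, 39.8 and 37.6 to 5.15, 4.81 and 5.80 CPM (-2.86 ± 0.08) and BPGM, a red-cell enzyme of 2,3-bisphosphoglycerate, from 207, 205 and 225 to 26.3, 28.0 and 32.7 CPM (-2.87 ± 0.10). The largest rises after F11R, CXADR, TNFSF4 and SFRP1 were in CLEC14A, from 4.87, 4.004 and 4.05 to 24.5, 23.7 and 20.4 CPM (2.40 ± 0.11), the protocadherin PCDH10 (2.38 ± 0.12), the cGMP-dependent kinase PRKG2 (2.35 ± 0.11) and the lipid phosphatase INPP4B (2.26 ± 0.11). Measured as a difference in mean CPM, the rises were led by genes at high levels: ASPH, DST, HSPA8 (given above) and NAMPT, in that order. ASPH went from 1286, 1220 and 1310 CPM to 2401, 2608 and 2948 CPM (1.06 ± 0.08) and dystonin DST from 1330, 1328 and 1430 to 2120, 2259 and 2492 CPM (0.75 ± 0.08). NAMPT, an enzyme of NAD salvage, went from 985, 939 and 1007 to 1410, 1556 and 1796 CPM (0.70 ± 0.09).

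The closest comparison in the series is TRi-1 against DMSO in senescent cells, which has controls of its own. The hairpin change minus the TRi-1 change was tested in the same fit, and 6662 genes (41.7%) differed, 3538 with a higher and 3124 with a lower value for the hairpin. The mean GC content of transcripts was 47.9% to 48.1% in the TRi-1 libraries and 46.9% to 47.7% in the DMSO libraries. The difference was not fitted with the GC correction, so the part of GC content in it was not tested. TXNRD1 RNA differed by -4.59 ± 0.11, with 431 ± 11.6 CPM under TRi-1 and 408 ± 19.3 CPM under DMSO. STING1 (-1.90 ± 0.15), IL1A (-1.06 ± 0.11), IL1B (-0.64 ± 0.09) and CXCL8 (-0.70 ± 0.15) were lower with the hairpin relative to TRi-1, each past the threshold. Their means were also lower with TRi-1 than with DMSO, a change not tested by itself here. CXCL8 read 7603 ± 447 CPM with DMSO and 3963 ± 40.1 CPM with TRi-1, and IL1B 2798 ± 23.6 and 2311 ± 45.8 CPM. IL1A read 416 ± 19.4 and 309 ± 2.22 CPM, and STING1 86.4 ± 5.62 and 68.7 ± 2.79 CPM. CXCL6 and IL24 had differences in the other direction: CXCL6 read 444 ± 35.8 CPM with DMSO and 34.6 ± 1.23 CPM with TRi-1 (1.57 ± 0.13), and IL24 read 18.9 ± 1.13 and 13.1 ± 0.785 CPM (1.99 ± 0.12). For IL6 the difference was -0.11 ± 0.07 (adjusted p = 0.201 by edgeR), which did not pass the test and does not show that the inhibitions acted alike.

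Among genes averaging 3 or more in log2 CPM over the 12 senescent libraries, the largest positive difference was in BMP5, where the hairpin took 10.2 ± 0.812 to 27.2 ± 3.31 CPM and TRi-1 took 9.98 ± 0.931 to 1.54 ± 0.0702 CPM (difference 4.10 ± 0.16). Periostin POSTN went from 60.4 ± 1.42 to 120.2 ± 11.8 CPM with the hairpin and from 110.4 ± 6.82 to 30.5 ± 1.73 CPM with TRi-1 (difference 2.85 ± 0.11). These genes moved in opposite directions under the treatments. TNFSF4 rose with the hairpin but read 25.8 ± 0.715 CPM with DMSO and 24.0 ± 0.986 CPM with TRi-1 (difference 2.74 ± 0.14). Among negative differences LRRC15 fell under the hairpin from 156 ± 4.23 to 9.54 ± 0.113 CPM and went from 139.6 ± 7.68 to 92.9 ± 1.95 CPM with TRi-1 (difference -3.44 ± 0.08), and SERPINA9 went from 16.99 ± 0.805 to 0.652 ± 0.0442 CPM and from 29.2 ± 1.39 to 16.3 ± 0.966 CPM (difference -3.86 ± 0.14). All 24 genes with the largest hairpin changes were past the threshold for the difference, 23 with the sign of the hairpin change, a count that their choice by that change favours. The exception was HBG2, a fetal globin gene with the close paralog HBG1, which had a difference of 0.81 ± 0.29.

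**Figure D4:**
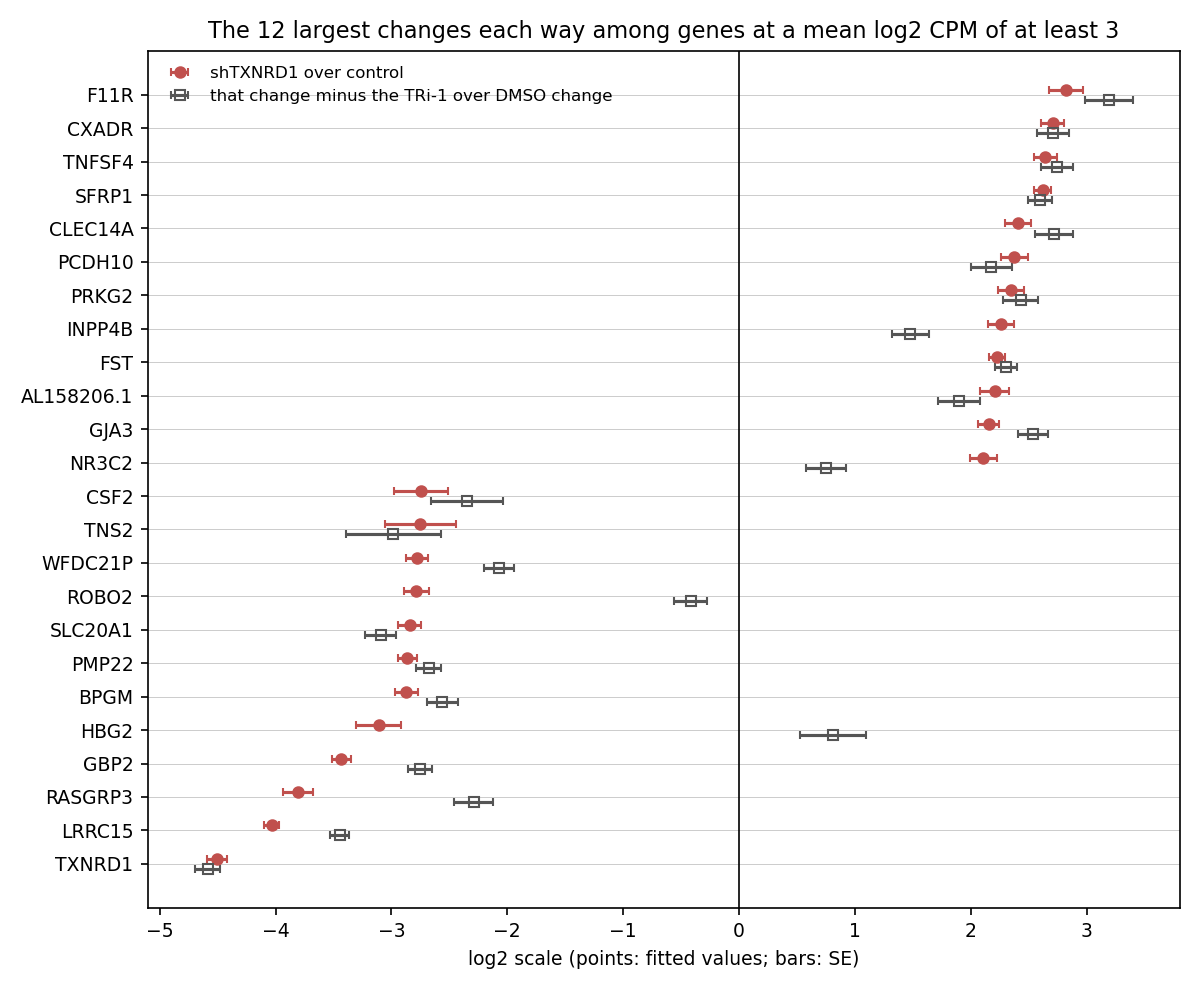
Log2 fold change of shTXNRD1 over control (red circles) and that change minus the change of TRi-1 over DMSO (open squares), on the x axis in log2 units with SE bars, for the 12 largest rises and the 12 largest falls among genes averaging 3 or more in log2 CPM. The squares of HBG2 (0.81), ROBO2 (-0.42), RASGRP3 (-2.29) and NR3C2 (0.75) lie furthest from their circles.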

How the data were processed

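RNA-seq was measured in 15 libraries of IMR90 cells, 3 in each of 5 groups, from column-purified RNA treated with DNase, made into libraries (KAPA RNA HyperPrep) and read as 75-bp pairs, per the labels' protocols. The deposited table holds whole-number counts of 57736 Ensembl genes, made by the authors. Per the submitters' processing notes, tools and builds included RSEM 1.2.3, DESeq2, hg19 and mm10, with no step given for any, and whether counting used strand is not given in the sources used here. Groups and replicate numbers were read from the sample labels, and symbols were matched to 52301 of the gene identifiers (the rest held 0.680% of counts).

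Counts as deposited were scaled by TMM, filtered with filterByExpr (15994 genes kept) and fitted over all 15 libraries with 10 residual degrees of freedom by the quasi-likelihood test of edgeR 4.0.16 in R 4.3.3, with Benjamini-Hochberg adjustment over all genes tested. Pooling the groups gives each gene 1 estimate of the spread, although the spread differed between groups. The chi-square per degree of freedom between replicates was 13.5 to 50.0 with the hairpin and 3.70 to 9.84 in the senescent controls. It was 4.88 to 48.5 in growing cells, 1.61 to 14.1 with DMSO and 1.85 to 3.28 with TRi-1. The pooled estimate may therefore understate the spread of the hairpin group. Standard errors were derived from the fold change and the F statistic. On simulated counts for 15480 genes of this comparison, 95.5% of 4-fold, 79.1% of 2-fold and 49.3% of 1.5-fold changes were recovered, with 6 false calls. Changes were set in 66, 67 and 67 genes, and counts were drawn independently with the same spread in every group. The simulation held no GC differences between libraries, so it does not measure false calls in the real data. Totals per library were 18033076 to 25246314 counts in the 6 libraries compared. No 2 replicates had counts within sampling noise of each other.

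Named genes were a panel of 12, the 12 largest changes each way at a mean log2 CPM of 3 or more without overlap, the 8 largest differences in mean CPM each way, the 2 members of each list with the smallest p, and further list members given where a list is described. For the difference from TRi-1 they were the 5 largest each way past the threshold, averaging 3 or more in log2 CPM over the 12 senescent libraries. The gene lists (69, with 18 entries not matched) and the genes followed were chosen with earlier results of these data known. The hairpin comparison was repeated under 17 alternatives, with limma 3.58.1, DESeq2 1.42.0 and other edgeR settings. The difference from TRi-1 was repeated with another scaling, no filter, DESeq2, a replicate block and without each of its 12 libraries. It was not repeated with the GC correction, limma-voom or the cut at a mean of 5 CPM.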

Additional observations from a re-analysis of the deposited data

How the results depend on the processing

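The counts of genes called higher and lower kept their size within 1.5 times in all 17 alternatives. The count with at least a 2-fold change was 1063 in place of 2154 when only genes at a mean of 5 CPM or more were tested, which left 10668 genes. Leaving out each of the 6 libraries gave 3586 to 4412 genes higher, 3520 to 4549 lower and 1965 to 2752 with at least a 2-fold change. For the difference from TRi-1, leaving out each of its 12 libraries gave 3012 to 3987 higher and 2691 to 3897 lower. Of the 8105 genes called, 6671 were called the same way without the lowest-GC library of each group, an alternative chosen after seeing the data, and 7590 with the GC correction. No gene was called in the opposite direction in any alternative. The GC correction gave 5470 genes higher and 4192 lower, and the fit of the compared groups alone 4398 and 2942. TXNRD2 changed sign with the GC correction (0.068). CDKN1A, not called, stood at -0.031 without shTXNRD1 replicate 1 and 0.11 without replicate 3. LMNB1, not called, stood at -0.022 without the lowest-GC libraries and between -0.020 and 0.14 when libraries were left out. Whether replicate numbers pair the samples could not be told. The deviations of same-numbered libraries from their group means correlated at 0.087, 0.0591 and 0.6233, and control 2 correlated best with shTXNRD1 1 (0.5996). Both high values joined libraries placed alike in GC content. Control 3 and shTXNRD1 3 were the lowest of their groups, and control 2 and shTXNRD1 1 the highest. With the replicate number as a block, 3956 genes were higher, 3749 lower and 2094 changed by at least 2-fold, and the difference from TRi-1 had 3292 higher and 2864 lower. Low genes were called less often: 26.2% of genes under a log2 CPM of 0 were called, against 64.0% of those above 6. The part of sequencing depth in this was not tested.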

Other observations

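Further gene lists are read against the same shares of all genes, 25.8% higher and 24.8% lower. HOX genes, which keep a cell's position along the body axis, rose in 6 of 15 and fell in 1. The other 8 were not called, and 50.7% of all genes were called, so the list did not stand out by its number of calls. HOXA7 went from 0.77, 1.04 and 0.5 CPM in the control libraries to 3.15, 2.49 and 2.23 CPM with the hairpin (1.76 ± 0.26) and HOXA5 from 5.23, 4.597 and 5.95 to 10.1, 10.6 and 12.8 CPM (1.09 ± 0.13). HOXB6 fell from 33.7, 34.3 and 30.7 CPM to 11.2, 8.31 and 5.75 CPM (-1.97 ± 0.19), while its neighbour HOXB5 rose (0.86 ± 0.06). Overlapping transcripts in this cluster may share reads.

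Genes of tubulin and its motors fell in 15 of 27 and rose in 5. TUBB2B went from 1.74, 1.63 and 1.70 CPM to 0.4, 0.438 and 0.0496 CPM (-2.47 ± 0.44) and TUBA4A from 10.5, 11.5 and 10.4 to 3.15, 2.54 and 1.64 CPM (-2.14 ± 0.22), while the kinesin KIF21A rose from 0.892, 1.19 and 1.40 to 3.40, 4.46 and 4.46 CPM (1.83 ± 0.30). Tubulin genes are close paralogs, so reads may have been split between them. Clock genes fell in 8 of 18 and rose in 3, or 10 and 5 with the GC correction. BMAL1, the activator of the clock, rose from 19.95, 21.9 and 23.5 to 36.7, 41.1 and 45.3 CPM (0.92 ± 0.10), and its partners NPAS2 (-1.55 ± 0.08) and CLOCK (-0.59 ± 0.09) fell.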
